A study of Mus musculus with 6 samples.

Results

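Globin and red cell transcripts were examined in mouse liver, as 6 genes chosen by symbol out of the 18720 rows of the expression tables. They are the alpha-globin copies Hba-a1 and Hba-a2, the beta-globin copies Hbb-bs and Hbb-bt, Alas2, which encodes the erythroid form of the first enzyme of haem synthesis, and Slc4a1, which encodes band 3, the anion exchanger of the red cell membrane. The set was assembled with earlier results of the same comparison known, so its differences between the groups are given as a description. Where a test threshold is mentioned for these genes, nothing is read from it. All mice were male C57BL/6, aged 1 year, on a high-fat diet, and were injected into the peritoneum 2 times a week for 12 weeks. Of the 6 libraries of poly(A) RNA, 3 came from the R159 group (HFD-R159) and 3 from the vehicle group (HFD-Veh). R159 is a code name, its dose is not given in the sources used here, and no group on another diet was analysed here. Nothing says outright that each library came from its own animal, so the spread between libraries may in part be technical.

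Haemoglobin is a tetramer of alpha and beta chains, each holding a haem group, and adult mice make it in erythroblasts of the bone marrow and spleen. Young red cells, the reticulocytes, enter the blood without a nucleus but still carry globin mRNA. The fetal liver is a site of red cell formation, whereas the adult liver holds red cells mainly as blood in its vessels, where Kupffer cells also remove aged ones. In C57BL/6 mice the adult beta chains come from the Hbb-bs and Hbb-bt genes. In bulk tissue, fewer cells of a type and less RNA per cell cannot be told apart.

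Upstream sequence was available from RefSeq, on build GRCm38.p6, for 5 of the 6 genes (all but Slc4a1). The 250 bases before the transcription start of 4 of them are shown because these genes include those of largest difference and the one of smallest, and because the elements of erythroid promoters can be read in them. Capitals mark GATAA (the core of the site read by GATA1), CACCC (the box read by KLF1), CCAAT and TATAA, searched on both strands, so that their reverse complements are in capitals too. Hba-a1 lies at chr11:32283422-32283671 (plus strand), Hbb-bs at chr7:103827929-103828178 (minus strand), Hbb-bt at chr7:103813924-103814173 (minus strand) and Alas2 at chrX:150547167-150547416 (plus strand).
Hba-a1: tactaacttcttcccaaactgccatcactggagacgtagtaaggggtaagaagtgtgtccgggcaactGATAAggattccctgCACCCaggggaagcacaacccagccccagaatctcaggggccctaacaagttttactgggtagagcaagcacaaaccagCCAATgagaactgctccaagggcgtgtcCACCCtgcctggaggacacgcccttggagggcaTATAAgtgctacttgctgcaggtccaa
Hbb-bs: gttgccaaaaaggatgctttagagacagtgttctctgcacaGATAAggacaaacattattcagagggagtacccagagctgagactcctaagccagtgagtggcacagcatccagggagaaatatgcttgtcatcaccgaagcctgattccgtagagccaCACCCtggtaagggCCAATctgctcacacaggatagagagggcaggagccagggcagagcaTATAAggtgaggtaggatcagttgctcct
Hbb-bt: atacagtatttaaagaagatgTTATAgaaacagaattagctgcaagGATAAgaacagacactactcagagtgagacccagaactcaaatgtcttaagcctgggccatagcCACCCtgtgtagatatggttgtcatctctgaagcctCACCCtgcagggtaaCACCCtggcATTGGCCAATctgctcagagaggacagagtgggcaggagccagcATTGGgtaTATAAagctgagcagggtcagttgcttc
Alas2: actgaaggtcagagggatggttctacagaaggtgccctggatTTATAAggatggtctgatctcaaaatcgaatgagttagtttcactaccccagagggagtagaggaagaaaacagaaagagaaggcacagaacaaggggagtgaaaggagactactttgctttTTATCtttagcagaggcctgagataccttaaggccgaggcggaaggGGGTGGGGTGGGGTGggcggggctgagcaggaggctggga
The Hba-a2 window was identical to that of Hba-a1 over the 247 bases they share, while the windows of Hbb-bs and Hbb-bt matched at 178 of 243 aligned bases. Each globin window held all 4 elements. In Hbb-bs the CACCC began at position -90, the CCAAT at -76 and the TATAA at -29, counted from the start. In Hba-a1 a CACCC began at -167 and another at -60, on either side of the CCAAT at -88, and the TATAA began at -27. Alas2 held no CCAAT, its GATAA lay on the opposite strand at -86 to -82, and 3 CACCC copies stood on the opposite strand between -40 and -26. Over all 32851 upstream windows of that length, GATAA occurred in 22.6%, CACCC in 52%, CCAAT in 33.8%, TATAA in 22.8% and all 4 together in 0.968%. These matches describe letters and show nothing about binding.

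The copies within each globin pair are hard to separate by short reads. The coding sequences of Hba-a1 and Hba-a2 differed at 1 of 429 bases, and 67.5% of all stretches of 50 bases (the length of each read) in the Hba-a1 transcript occurred unchanged in the Hba-a2 transcript. Hbb-bs and Hbb-bt differed at 1 of 444 coding bases, with 65.8% of such stretches shared. Alpha and beta transcripts shared no stretch of that length. The division of reads within a pair is therefore uncertain, and sums over each pair are given beside the single copies.

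Values below are normalised counts, the unit of the deposited tables. Estimated depth was 51.3 to 55.7 M reads in the R159 libraries and 66.0 to 76.7 M reads in the vehicle libraries. The libraries were liver throughout: Alb, which encodes albumin, was the highest row in each, at 2700000 to 4790000. Genes of the mitochondrial genome took 8.42% to 13.6% of all values in R159 and 5.01% to 7.43% in vehicle. limma called 4479 of 16594 tested genes (27%) at an adjusted p under 0.05, 12.8% higher and 14.2% lower in R159. The groups did not overlap for 46.2% of tested genes, 22.5% with R159 higher and 23.6% with R159 lower.

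Globin transcripts were several times more abundant in the R159 livers. R159 replicates 1 to 3 held 23242, 30148 and 18553 normalised counts of summed alpha-globin, and vehicle replicates 1 to 3 held 4378, 4236 and 11062. Every R159 library lay above every vehicle library, and vehicle replicate 3 stood well above the other vehicle libraries. The means were 23981 ± 5832 and 6559 ± 3901 (SD, n = 3 each), a 3.66-fold ratio and a log2 difference of 1.99 (SE 0.36). On its own, Hba-a1 gave a log2 difference of 2.20 (SE 0.38) and Hba-a2 one of 1.87 (SE 0.34).

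Beta-globin showed the same order of groups. Hbb-bs, the more abundant copy, stood at 23787, 18928 and 10522 in R159, against 2808, 2210 and 5778 in vehicle. The groups did not overlap, R159 replicate 3 was the lowest of its group and vehicle replicate 3 the highest of its own. The log2 difference of Hbb-bs was 2.35 (SE 0.39). Hbb-bt stood at 4729, 4628 and 3029 in R159, against 579, 485 and 952 in vehicle, and again no R159 library fell into the vehicle range. Its ratio of means was 6.14 and its log2 difference 2.65 (SE 0.27), above that of 99.2% of all tested genes. Such a rank was favoured in advance, because the genes were picked on this comparison. Summed beta-globin was 21874 ± 7623 in R159 and 4271 ± 2158 in vehicle (log2 difference 2.40, SE 0.37).

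Vehicle replicate 3 narrowed both differences. Without it, the log2 difference was 2.45 for the alpha sum and 2.79 for the beta sum. With any other library left out it was 1.76 to 2.17 for the alpha sum and 2.13 to 2.71 for the beta sum. Globins as a whole made up 0.0931%, 0.0729% and 0.0470% of all values in the R159 libraries, and 0.0142%, 0.0124% and 0.0301% in the vehicle libraries.

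Alas2, the erythroid enzyme gene, had the smallest difference of the 6. Its values were 5596, 6192 and 8414 (R159) and 5351, 5984 and 4021 (vehicle). The groups overlapped, since vehicle replicate 2 lay above R159 replicate 1. The log2 difference was 0.39 (SE 0.21), and 68.3% of all tested genes had a lower one. Within each group the libraries stood in the reverse order for Alas2 and for summed beta-globin: R159 replicate 3 had the most Alas2 and the least beta-globin of its group, and vehicle replicate 3 the least Alas2 and the most beta-globin.

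Slc4a1, the band 3 gene, was scarce and uneven. Its values were 96.5, 17.3 and 186 (R159) and 25.7, 20.4 and 10.1 (vehicle), which corresponds to 89, 12 and 152 estimated reads and to 31, 28 and 12. R159 replicates 1 and 3 lay above all vehicle libraries, and R159 replicate 2 lay inside the vehicle range. The log2 difference was 1.91 (SE 0.81). It was 2.87 without R159 replicate 2, where Slc4a1 did pass limma's threshold, and 1.19 without R159 replicate 3. With all 6 libraries, the 4 globin rows had groups that did not overlap and passed limma's threshold, and Alas2 and Slc4a1 neither. Since the genes were picked on this comparison, nothing is read from that count beside the 12.8% of all genes called higher.

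**Figure D1:**
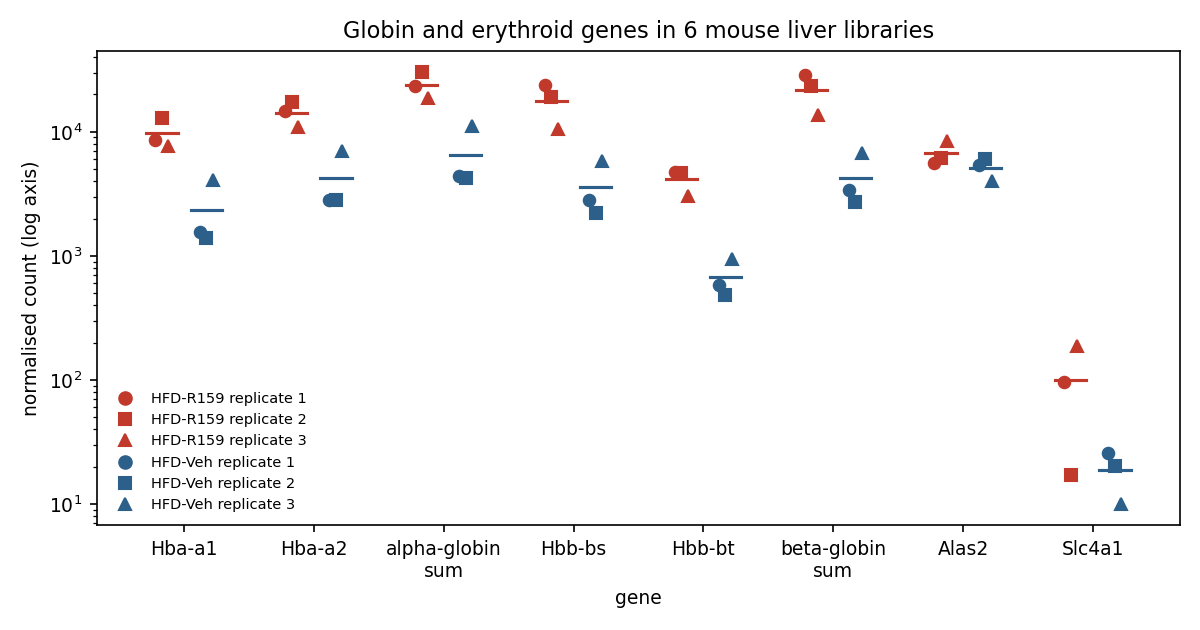
Normalised counts (log axis) of the 4 globin rows, their pair sums, Alas2 and Slc4a1 in the 3 HFD-R159 (red) and 3 HFD-Veh (blue) libraries, with bars at the group means. The groups are apart for each globin row, overlap for Alas2, and overlap for Slc4a1 through R159 replicate 2 at 17.3.

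Transcript length moved with the same contrast, and the globins are short. Their longest coding transcripts run from 554 nt (Hba-a2) to 703 nt (Hbb-bt), against 2037 nt for Alas2 and 4545 nt for Slc4a1. Of 281 tested genes with transcripts of 500 to 800 nt, 60.1% were called higher and 0.356% lower in R159, and their median log2 difference was 0.97, against 0.00 over all tested genes. The single globin rows lay above 95.4% to 98.6% of these short genes, a rank favoured in advance because they were picked on this comparison. With the trend on transcript length subtracted from each library, the log2 difference was 0.93 (SE 0.39) for the alpha sum, 1.29 (SE 0.45) for Hbb-bs, 1.69 (SE 0.32) for Hbb-bt, 0.33 (SE 0.19) for Alas2 and 2.27 (SE 0.81) for Slc4a1. Of the globin rows, 1 (Hbb-bt) was then past the threshold, where 1342 of 13501 tested genes were called higher. Since the genes were picked on this comparison, nothing is read from that count. Slc4a1, the long transcript of the set, had the largest of the length-corrected differences and the widest error.

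**Figure D2:**
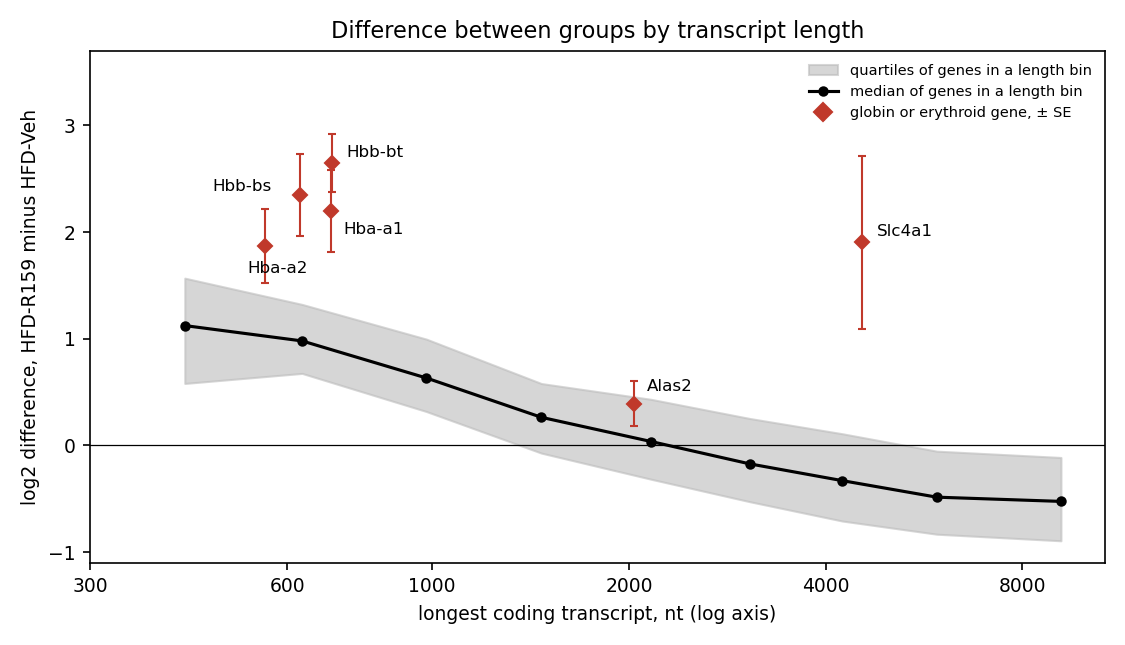
Log2 difference (HFD-R159 minus HFD-Veh) against the length of the longest coding transcript (log axis). The black line and grey band give the median and quartiles of tested genes in length bins of at least 20 genes; red diamonds give the 6 globin and erythroid genes ± SE. The median falls from 1.12 in the bin from 350 nt to -0.52 in the bin from 7000 nt. The globins, which were picked on this comparison, lie above the band at their length.

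The make-up of the globin pool was compared within libraries. Alpha counts per beta count came to 0.815, 1.28 and 1.37 in R159, against 1.29, 1.57 and 1.64 in vehicle. The groups overlapped narrowly, and R159 replicate 1 was the one library with more beta than alpha counts. Hbb-bt made up 16.6%, 19.6% and 22.4% of beta-globin in R159 and 17.1%, 18.0% and 14.1% in vehicle, also with overlap. The Hba-a2 share of alpha-globin was 62.8%, 57.2% and 58.9% in R159, below the 64.6%, 67.1% and 63.2% of vehicle. The groups did not overlap, but the nearest libraries were R159 replicate 1 and vehicle replicate 3, and the division of reads is uncertain. Relative to the globin sum, Alas2 stood at 10.8%, 11.5% and 26.2% in R159 and 68.9%, 86.3% and 22.6% in vehicle. R159 replicate 3 thus lay above vehicle replicate 3 in this ratio, and below the other vehicle libraries.

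**Figure D3:**
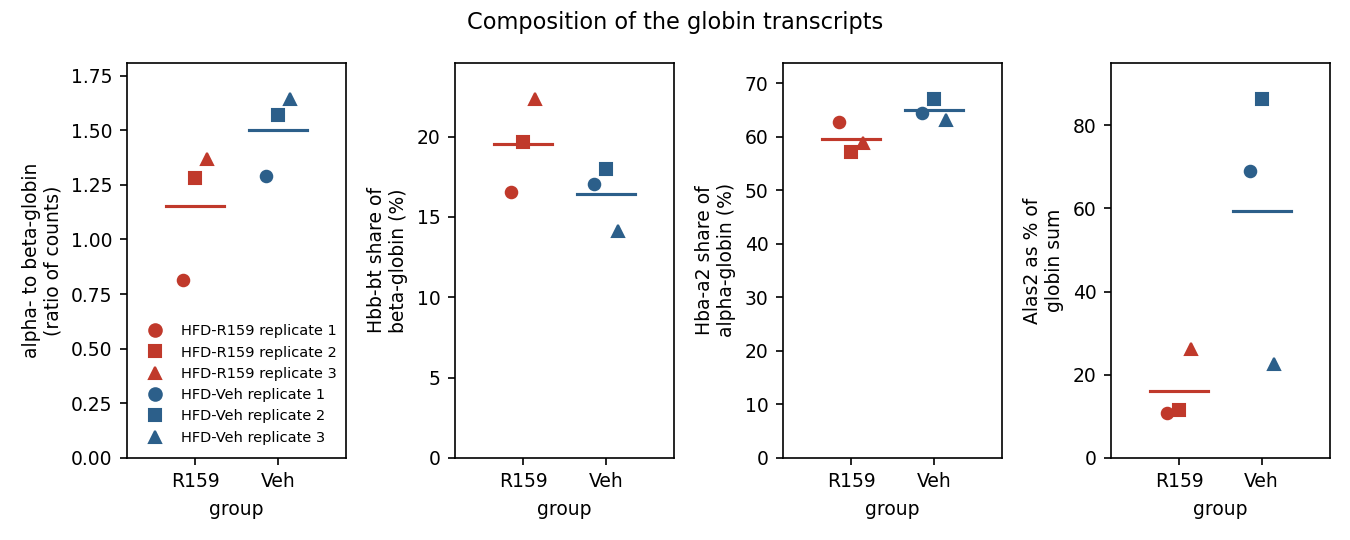
Alpha to beta ratio of counts, Hbb-bt share of beta-globin, Hba-a2 share of alpha-globin and Alas2 as a percentage of the globin sum, by library, with bars at the group means. The Hba-a2 share alone has groups that do not overlap; Alas2 relative to globin runs from 10.8% to 86.3%.

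Levels between genes were compared per kilobase of transcript. In R159 the order was alpha-globin (39642 ± 9509 normalised counts per kilobase), beta-globin (34130 ± 11982), Alas2 (3306 ± 729) and Slc4a1 (22.0 ± 18.6). In vehicle the order was the same, at 10964 ± 6479, 6686 ± 3395, 2513 ± 492 and 4.12 ± 1.76. The alpha-globin levels rest on annotated lengths of 699 nt for Hba-a1 and 554 nt for Hba-a2. They also rest on the uncertain division of reads between these copies, so alpha- against beta-globin per kilobase is uncertain too. Within libraries, alpha-globin per kilobase was 0.868, 1.35 and 1.45 times beta-globin in R159 and 1.38, 1.69 and 1.75 times in vehicle. Alpha-globin thus lay above beta-globin in all 3 vehicle libraries (ratio 1.61 ± 0.20), while R159 libraries fell on both sides of 1 (1.22 ± 0.31). Beta-globin exceeded Alas2 per kilobase 16.2, 12.1 and 5.10 times in R159 and 2.02, 1.43 and 5.35 times in vehicle. Alas2 in turn exceeded Slc4a1 per kilobase 129, 801 and 101 times in R159 and 464, 654 and 892 times in vehicle.

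The wider erythroid programme was followed with 53 other genes of red cell precursors. Other cells also make some of them, such as Epb41, Prdx2, Ldb1 and Tfrc. Of the 53 genes, 45 were listed and 37 passed the minimum mean value. Of these 37, limma called 7 higher and 4 lower in R159, or 29.7%, beside 27% of all tested genes. Their median log2 difference was 0.30, against 0.00 over all tested genes. The share called is near that of all genes. Genes called lower had vehicle means from 1085.9 (Tfrc) to 6303.1 (Epb41), and those called higher from 2.29 (Trim10) to 5283.5 (Prdx2). Which cells these reads came from was not tested. With values rescaled without the 20 highest genes, which shifts the median of all genes to -0.11, 3 were called higher and 7 lower. The count of 11 was 2 without vehicle replicate 2 and 4 without vehicle replicate 3. Ahsp, which encodes the chaperone of free alpha-globin, Epb42 and Gata1 were not analysed here.

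Among membrane and membrane skeleton genes 1 of 12 rose and 2 fell, or 25%, beside 27% of all tested genes. The summed level of the 18 listed membrane genes was 15424 to 17611 in R159 and 18876 to 23123 in vehicle, the opposite order to the globins. Stom, which encodes stomatin, fell by 0.73 in log2 units (SE 0.14, limma adjusted p = 0.00805), and kept its call in all 18 alternatives run. Epb41, which encodes protein 4.1 of the membrane skeleton and is made in many cell types, fell by 0.73 (SE 0.19, adjusted p = 0.0244), but was at -0.21 (adjusted p = 0.31) with the length trend removed. Its adjusted p was 0.0514 to 0.0933 without R159 replicate 2 or 3 or vehicle replicate 2 or 3 (log2 difference -0.57 to -0.74).

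Among 16 genes for enzymes, carriers and other late erythroid proteins, 5 rose and 1 fell, or 37.5%, beside 27% of all tested genes. Trim10, a gene of terminal red cell maturation, stood at 16.3, 12.9 and 28.2 in R159, against 1.66, 4.37 and 0.838 in vehicle (2.69, SE 0.84, limma adjusted p = 0.0435). It lost its call without any 1 of the 3 vehicle libraries (2.34 to 3.11, adjusted p 0.088 to 0.126) and with the length trend removed (2.67, adjusted p = 0.0608).

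Prdx2, a peroxide-reducing enzyme of red cells that liver also makes, rose by 0.84 (SE 0.19, limma adjusted p = 0.015), and by 0.62 (adjusted p = 0.0215) with the length trend removed. Without vehicle replicate 2 it was at 0.79 (adjusted p = 0.068) and without vehicle replicate 3 at 0.79 (0.0583). Slc25a38, the mitochondrial glycine carrier that feeds haem synthesis, rose by 0.72 (SE 0.19, adjusted p = 0.0227), and stood at 0.58 (adjusted p = 0.0637) with the length trend removed, 0.61 (0.087) without vehicle replicate 1 and 0.66 (0.0991) without vehicle replicate 2. Isg20, a nuclease gene that interferon also induces, rose by 0.79 (adjusted p = 0.027), but was at 0.21 (adjusted p = 0.53) with the length trend removed, and at 0.71 to 0.75 (adjusted p 0.059 to 0.123) without R159 replicate 2, vehicle replicate 1 or vehicle replicate 2. Xpo7, an exporter involved in nuclear condensation, fell by 0.78 (adjusted p = 0.0168), and was at -0.38 (0.16) with the length trend removed and -0.62 (0.0641) without vehicle replicate 3.

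Of 9 regulators and receptors, 1 rose and 1 fell, or 22.2%, beside 27% of all tested genes. Ldb1, which bridges GATA1 and TAL1 complexes and is widely expressed, rose by 0.69 (SE 0.15, limma adjusted p = 0.0116), or by 0.87 (adjusted p = 0.0061) with the length trend removed. It was at 0.68 (adjusted p = 0.0622) without vehicle replicate 2 and 0.65 (0.0518) without vehicle replicate 3. Tfrc, the transferrin receptor that supplies iron to erythroblasts and most dividing cells, fell by 0.67 (SE 0.18, adjusted p = 0.0237). Its value with the length trend removed was -0.28 (adjusted p = 0.216), and it lost its call without R159 replicate 3 or any 1 vehicle library (-0.57 to -0.77, adjusted p 0.0553 to 0.0983). Klf1, the activator of adult beta-globin, stood at 134, 90.6 and 308 in R159, against 90.5, 107 and 119 in vehicle (0.56, adjusted p = 0.349). Epor, the erythropoietin receptor, gave 0.55 (adjusted p = 0.266), although its groups did not overlap (73.7, 54.6 and 74.8 against 54.0, 42.3 and 41.1).

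**Figure D4:**
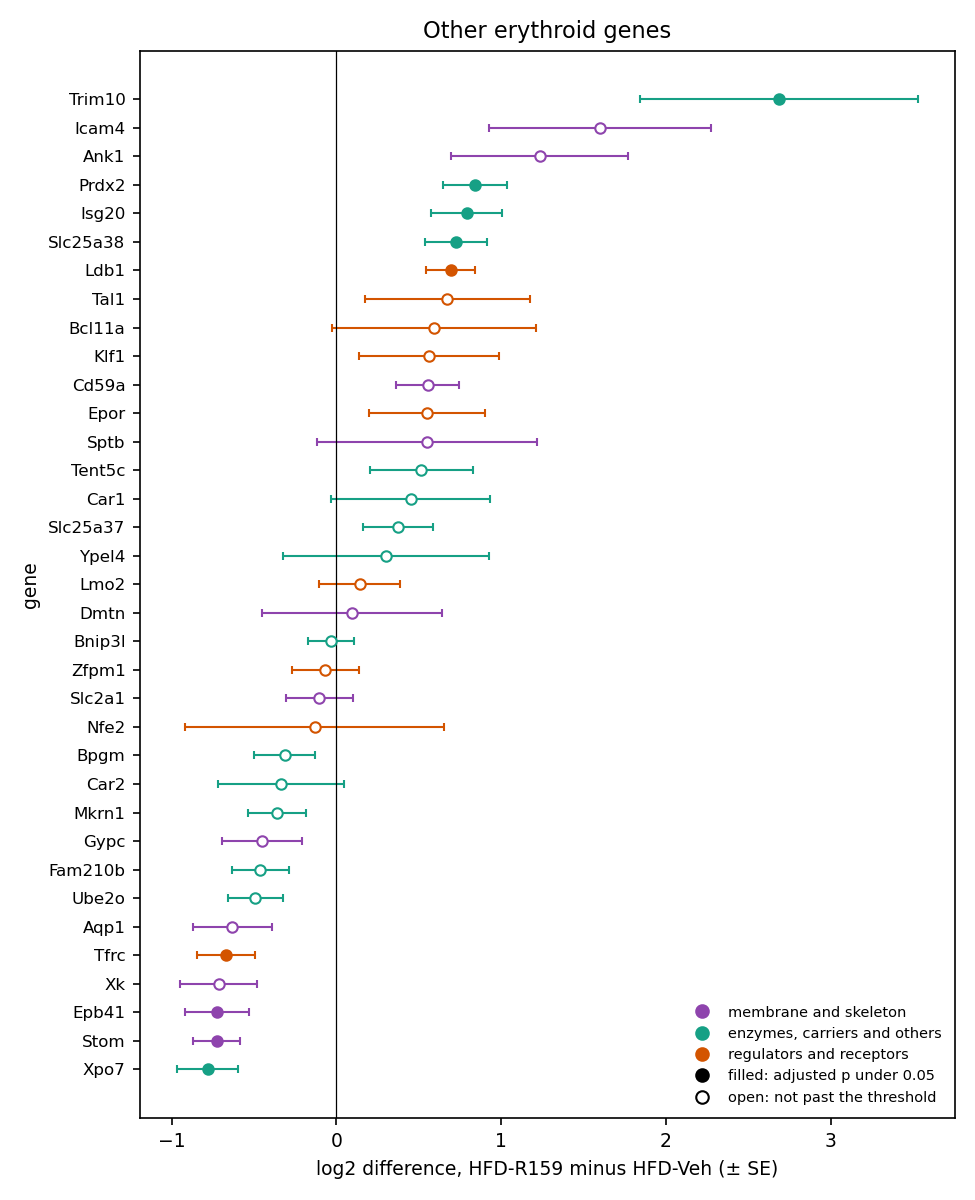
Log2 difference (HFD-R159 minus HFD-Veh, ± SE) of tested erythroid genes beyond the 6 described first, coloured by role; filled points passed an adjusted p of 0.05 and open ones did not. Among the genes drawn, Trim10 lies farthest to the right, at 2.69, and 4 genes are called lower.

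The scarcest erythroblast transcripts were concentrated in 1 library. Of the 8 listed erythroid genes under the minimum mean value (among them Tmod1, Rhag, Rhd, Ermap, Cldn13, Hemgn and Myb), all 8 were highest in R159 replicate 3. Together they had 42.4, 9.0 and 147 estimated reads in R159 and 10.5 to 25 in vehicle. Rhag and Rhd, which encode red cell Rh proteins, had 14 and 21 estimated reads in R159 replicate 3 and at most 1 in any other library. Hemgn, a nuclear protein of erythroblasts, had 27 reads there and at most 3 elsewhere. R159 replicate 3 was also highest of the 6 for Slc4a1 and Alas2, yet lowest of its group for alpha- and beta-globin. Alas2 was not scarce in any library (4021 to 8414), and which cells its reads came from was not tested. Over all 45 listed erythroid genes R159 replicate 3 was highest for 19, and vehicle replicate 3 for 13. How often each library was highest over all genes was not counted. The counts of 8 and 19 are therefore not read as particular to erythroid genes.

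**Figure D5:**
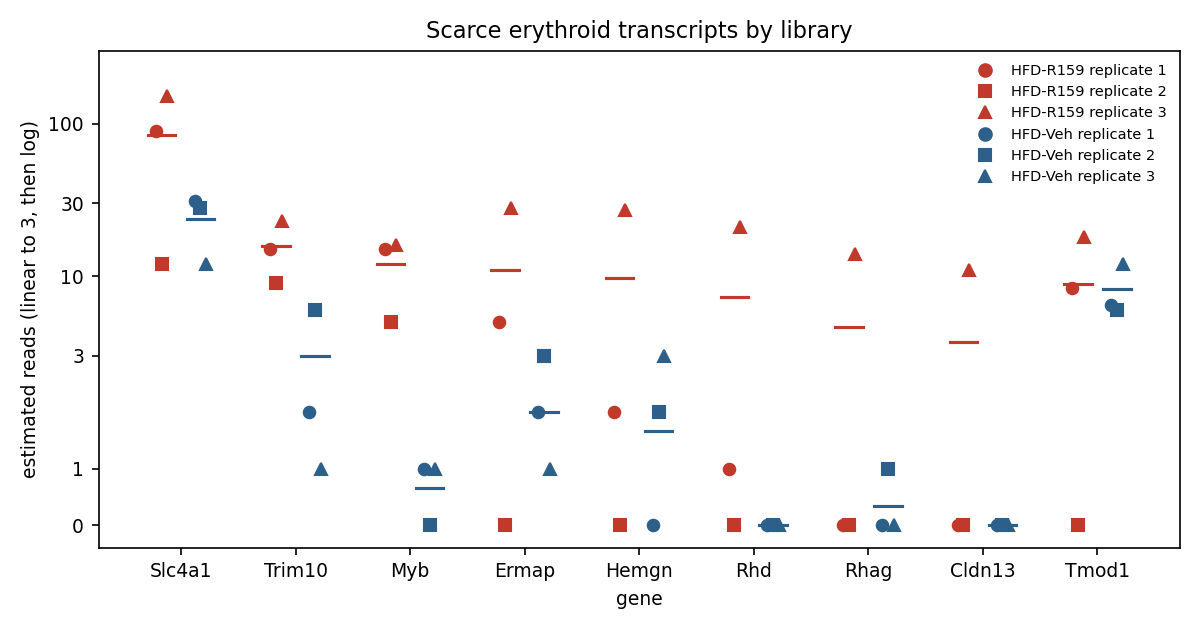
Estimated reads (linear to 3, then log) of Slc4a1 and 8 other scarce erythroid transcripts in each library, with bars at the group means. Rhd, Rhag, Hemgn and Cldn13 stand out in R159 replicate 3, at 11 to 27 reads, while the other libraries hold 0 to 3.

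Markers of other blood cells were read beside the globins. None of the tested platelet (10), neutrophil (9), B cell (10) or T and NK cell (10) genes was called by limma, beside 27% of all tested genes. In these lists, in that order, 2, 2, 2 and 0 genes were at an unadjusted limma p under 0.05. Summed platelet markers were 882 to 1603 in R159 and 893 to 967 in vehicle, and summed neutrophil markers 447 to 1483 and 250 to 571. Summed B cell markers were 1780 to 5350 and 1628 to 1797, and summed T and NK cell markers 318 to 737 and 231 to 661. No listed marker was at 0 in all libraries. With R159 replicate 1 left out, limma called 1, 2, 2 and 1 of these genes higher. For platelet genes, 1 was also called higher without R159 replicate 2, with the replicate block and at a minimum mean of 50. With the length trend removed, Itga2b, a platelet integrin gene, was called higher (1.22, adjusted p = 0.0321) and Clec1b lower. A B cell gene was also called higher without the empirical Bayes trend and without R159 replicate 3. The summed levels of the groups overlapped in each of these lists. R159 replicate 3 had the highest sum of platelet, neutrophil and B cell markers. Of 10 blood monocyte markers 0 rose and 2 fell, or 20% (sums 2194 to 2933 against 1682 to 2953). They were Cx3cr1 (-1.40, limma adjusted p = 0.0107, but 0.0504 and -1.20 without vehicle replicate 1) and Ccr2 (-0.94, adjusted p = 0.045), and Ccr2 lost its call without any 1 of 5 libraries (all but R159 replicate 1; -0.77 to -1.08, adjusted p 0.0743 to 0.168). Of 12 hepatocyte genes, 16.7% were called: 1 rose (Tat, 1.23, adjusted p = 0.0464) and 1 fell (Hnf4a, -0.67, adjusted p = 0.0382). Alb gave 0.28 (adjusted p = 0.806). Tat lost its call without any 1 library but vehicle replicate 3 (0.80 to 1.42, adjusted p 0.061 to 0.161), and Hnf4a without R159 replicate 2 or 3 or vehicle replicate 2 or 3 (-0.56 to -0.67, adjusted p 0.0714 to 0.145). With the length trend removed, Ccr2 was at -0.48 (adjusted p = 0.263), Hnf4a at -0.33 (0.16) and Tat at 1.25 (0.0552), and none of these passed the threshold. The part of blood or marrow-like cells in the globin difference was not tested.

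Haem synthesis also serves the cytochromes of hepatocytes. Of 8 enzyme genes, 2 rose and 0 fell, or 25%, beside 27% of all tested genes. The median log2 difference of the 8 was 0.08. Uros, uroporphyrinogen III synthase, stood at 2136, 2029 and 1996 in R159, against 990, 952 and 914 in vehicle. It rose by 1.11 (SE 0.14, limma adjusted p = 0.00343). Ppox, protoporphyrinogen oxidase, was 2748, 1897 and 1766 against 922, 941 and 811, and rose by 1.24 (SE 0.20, adjusted p = 0.00476). Both passed in all 18 alternatives run. Alas1, the form of the first enzyme made in all tissues, stood at 11283, 9928 and 13225 in R159, against 41799, 15138 and 13594 in vehicle, where replicate 1 lay far above the rest (-0.85, adjusted p = 0.126). Fech, which inserts iron into the ring, gave -0.43 (adjusted p = 0.129).

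Of 14 genes of haemoglobin and haem clearance, 1 rose and 2 fell, or 21.4%, beside 27% of all tested genes. Slc48a1, the carrier that moves haem out of the phagolysosome, stood at 2082, 2082 and 2234 in R159, against 3837, 3922 and 3631 in vehicle (-0.83, SE 0.14, limma adjusted p = 0.00496), and kept its call in all 18 alternatives. Slc40a1, the iron exporter ferroportin, fell by 0.76 (SE 0.16, adjusted p = 0.00943), and was at -0.67 (adjusted p = 0.0602) without vehicle replicate 2. Blvra, a biliverdin reductase, rose by 0.67 (adjusted p = 0.0418), which limma did not call without any 1 of R159 replicates 2 and 3 and the 3 vehicle libraries (0.50 to 0.73, adjusted p 0.0827 to 0.136) or with the length trend removed (0.15, adjusted p = 0.47). The scavengers of free haemoglobin and haem, Hp (0.24, adjusted p = 0.625) and Hpx (0.07, adjusted p = 0.883), and Hmox1, the haem-degrading enzyme (-0.46, adjusted p = 0.249), did not pass. Cygb, the one non-erythroid globin above the minimum mean value, gave -0.50 (adjusted p = 0.347).

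Among 11 genes of erythropoietin and oxygen sensing, 2 rose and 1 fell, or 27.3%, beside 27% of all tested genes. Hif1a, which encodes the oxygen-regulated factor, fell by 1.24 (SE 0.19, limma adjusted p = 0.00425), and Vegfa, a target of such factors, rose by 1.44 (SE 0.21, adjusted p = 0.00402). Both passed in all 18 alternatives. Hamp, the iron hormone hepcidin, rose by 1.79 (SE 0.58, adjusted p = 0.0472) with overlapping groups, and was at 0.39 (adjusted p = 0.678) with the length trend removed. Its adjusted p was 0.0884 to 0.147 without R159 replicate 2 or 3 or vehicle replicate 1 or 2 (1.34 to 1.86). Epo was not analysed here.

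The genes of most similar pattern were ranked by Pearson's r over the 6 libraries between their log2 values and the mean log2 profile of summed alpha-globin, Hbb-bs, Hbb-bt, Alas2 and Slc4a1, among 11096 named genes with a mean of at least 100. The first were Zfp661 (r = 0.995), Izumo4 (0.994), Cbx7 (0.994), Bcat2 (0.994) and Cars2 (0.993). With group means removed, r was 0.983 for Izumo4, 0.950 for Cbx7 and 0.724 to 0.876 for the other 8 of the first 10. Izumo4 was 802 ± 206 in R159 and 144 ± 54.9 in vehicle. As 550 genes had r over 0.9 across libraries that share 2 groups, such values are common here and single out none of them.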

How the data were processed

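Stranded libraries of poly(A) RNA from 6 liver samples were read in pairs of 50 bases, per the labels' protocols. Build mm39 and the tools STAR 2.7.8a, cutadapt, FastQC 0.11.9, R 4.2.3 and DESeq2 (listed as 3.5) come from the submitters' processing notes. How reads were counted, on which annotation and strand, and how genes were filtered is not given in the sources used here. The deposited values are a signal: gene counts, not whole, that the authors scaled by 1 factor for each sample (read from the values). Low values fell on steps that give the value of 1 read and so the depth, but the share of whole values (within 0.02) below 200 reads was just 67.5% to 75.6%, so no count model was used. Precision is set by the spread between 3 libraries per group; the smallest genes are also limited by few reads.

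Genes with a mean of at least 10 were kept, and log2(value + 1) was fitted with limma 3.58.1 in R 4.3.3 (a single term for group, eBayes with a mean trend, Benjamini-Hochberg adjustment over all genes, threshold 0.05). Changes of low genes are understated on this scale. Lists came from general knowledge of the cell types and pathways. The 6 genes and the lists were chosen with earlier results of these data known. Genes named were the 6, 16 genes always where measured, the called genes of smallest p in each list (4, or 8 over the erythroid lists), and the 10 of most similar pattern; the 3 other called erythroid genes and the scarce genes were added after their values were seen. Some list genes are counted but not reported here. Transcript lengths (the longest coding transcript) and coding sequences came from GENCODE M21 (GRCm38), matched by symbol, and the length trend was a lowess curve of span 0.3. Alternatives were other normalizations, pseudocounts, filters and empirical Bayes settings, a replicate block, a threshold of 0.1, removal of the length trend and leaving out each library. Same-numbered libraries were not treated as pairs in the main fit, and whether the numbers pair the samples is not known. The method was tested on simulated data. Python 3.11.15 and matplotlib 3.10.9 drew the figures.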

Additional observations from a re-analysis of the deposited data

How the results depend on the processing

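The median log2 difference of 5 profiles (summed alpha-globin, Hbb-bs, Hbb-bt, Alas2 and Slc4a1) was 1.99. It was 1.29 with the length trend removed, with or without the replicate block, and 2.003 to 2.449 with 1 library left out. The number of genes called, 4479, was 2525 with the length trend removed (13501 genes tested), 2248 with the replicate block as well, and 1841 to 5425 with 1 library left out. The 11 called erythroid genes were 5 with the length trend removed, 5 with the replicate block as well, 7 without the empirical Bayes trend and 2 to 13 with 1 library left out. The 12 called genes of the 10 other lists were 21 at a threshold of 0.1 and 6 to 24 with 1 library left out. Rescaling without the 20 highest genes shifted the median of all genes to -0.11, and 3 erythroid genes were then higher and 7 lower; the cause of these changes was not tested. The replicate block alone gave 3945 called genes and 10 erythroid genes, and the same 4 globin rows were past the threshold. Trim10 (adjusted p = 0.0856), Isg20 (0.0513), Blvra (0.0647) and Hnf4a (0.0532) lost their limma calls under it. Deviations of same-numbered libraries correlated at -0.098, 0.031 and 0.108. No named gene that limma called changed direction. Few reads limit Slc4a1, Trim10 and scarcer genes, and 3 libraries per group limit all others.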
